A study of Bos taurus with 18 samples.

Results

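Good forage was set against both crop residues at once. Rumen papillae of 6 cows fed alfalfa hay (AH) were compared with those of 12 cows fed straw, of which 6 received corn stover (CS) and 6 rice straw (RS). The 18 animals were lactating Holstein cows, and 1 RNA-seq library per cow was analysed. Every diet contained, on a dry matter basis, 55% concentrate and 15% corn silage. The remainder was 30% of the straw in CS and RS, whereas in AH it was made up of alfalfa hay (23%) and hay of Chinese wild rye (7%), so that AH was not alfalfa alone. Feeding lasted 14 weeks. Of 24616 genes, the 12868 with a CPM over 1 (CPM being the reads of a gene scaled to all reads on genes of that cow) in at least 9 of the 18 cows were tested.

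The wall of the rumen is lined by a stratified squamous epithelium, whose outer cells fill with keratin, cornify and are shed into the lumen, while deeper cells divide and take up the volatile fatty acids that microbes make from forage. Such epithelia also defend themselves. They secrete cationic peptides such as beta-defensins and protease inhibitors, and they hold the calcium-binding proteins S100A8 and S100A9, which together form calprotectin. Calprotectin is likewise abundant in neutrophils and monocytes, and the cells behind a signal in whole papillae are not separated by this assay.

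The libraries held 16099131 to 32252177 reads on genes, so that a gene without any read could have reached 0.0930 to 0.186 CPM (3 reads, counting error only). On the first principal component, which carried 39.2% of the variance, a two-sided exact permutation test of AH against straw cows gave p = 0.795, and the exact p was 0.756 and 0.936 on the next components. The first 2 CS cows and the fifth RS cow lay apart on the first component, at scores of -68.1 to -80.8 against -34.2 to 45.0 for the other 15 cows. All of them were straw cows, and results that rest on them are given with and without them. Gene symbols could be attached to 73 identifiers only, all of them from a list of genes that the study selected on these same libraries. None of the 7 prepared basal keratinocyte markers and none of the 8 neutrophil markers had an identifier, so the tissue label and the share of neutrophils could not be checked on the defining markers.

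In limma, with a term for each diet, the contrast of AH with the mean of CS and RS gave 2 DE genes. DE meant that the p, adjusted after Benjamini and Hochberg, was under 0.05 and that mean CPM differed over 2-fold. They made up 0.0155% of the genes tested. Both were lower in AH, and they were *S100A9* and *PRSS53*. No gene (0%) was DE and higher in AH in this fit, nor by edgeR. DESeq2 called 14 genes (0.109%), 3 higher (*EPHX2*, *NOV* and *SLURP1*) and 11 lower, and limma with a weight for each cow called 11 genes, 1 higher (*EPHX2*) and 10 lower. An unadjusted p under 0.05 was found for 268 genes (2.08%), of which 157 (1.22%) were higher and 111 (0.863%) lower in AH. That split rested on single cows and on the scaling. It was 106 higher and 241 lower without the second AH cow. With all cows it was 184 and 168 after TMM scaling, and 172 and 169 when cows were scaled to a common median. DESeq2 gave 205 and 201. The exact permutation test over all 18564 allocations of 6 of 18 cows was under 0.05 for 313 genes (2.43%), 208 of them (1.62%) higher and 105 (0.816%) lower, and its lowest adjusted p was 0.462. The shares of 2.08% and 2.43% are below what a threshold of 0.05 would give on average if no gene differed. An unadjusted p under 0.05 therefore does not by itself mark a gene as differing. For every gene below that is given without its limma adjusted p over all cows, that p was 0.893 or higher. Mean CPM differed over 2-fold for 97 genes (0.754%), of which 39 (0.303%) were higher and 58 (0.451%) lower in AH. The median log2 difference of all genes was 0.03.

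**Figure D1:**
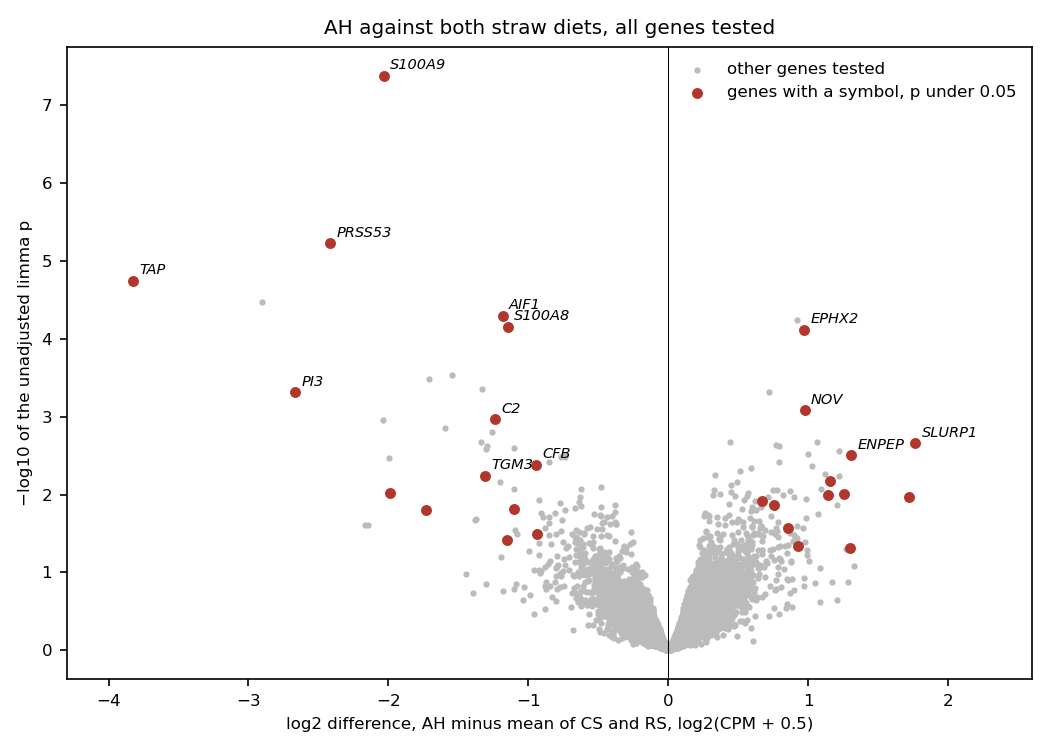
Each point is 1 of the 12868 genes, with its log2 difference (AH minus the mean of CS and RS, on log2(CPM + 0.5)) on the x axis and −log10 of its unadjusted limma p on the y axis. *S100A9* stands highest at a difference of -2.03, *TAP* lies farthest to the left at -3.82, and *SLURP1* farthest to the right at 1.77.

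*S100A9*, a subunit of calprotectin, separated the diets completely. Its level was 161 to 575 CPM (median 464) in AH cows, 1249 to 2419.8 CPM (median 1467) in CS cows and 1131.5 to 2167 CPM (median 1993) in RS cows. The highest AH cow lay below the lowest straw cow, and CS and RS cows covered much the same range. The mean was 445 ± 151 CPM (SD, n = 6) in AH and 1745 ± 454 CPM (SD, n = 12) in straw, a fold of 3.92. The log2 difference was -2.03 (95% interval -2.53 to -1.54), with a limma adjusted p of 0.000539 and a two-sided exact permutation p of 0.00011, the smallest that 18564 allocations can give. Between the straw diets the log2 difference, RS minus CS, was 0.06 (-0.51 to 0.63). The call held when any 1 cow was left out, and without the 3 cows that lay apart the difference was -2.14 with an adjusted p of 0.00210. Only 3 genes of all tested (0.0233%) showed no overlap between the 6 AH and the 12 straw cows, and *S100A9* was the only 1 of them that was lower in AH.

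Its partner *S100A8* pointed the same way with overlap. In AH cows it stood at 2052 to 4575 CPM (median 2868), in CS cows at 4379.9 to 10792 CPM (median 6138) and in RS cows at 4800.3 to 10358 CPM (median 7469.6). The straw cow was the higher one in 69 of the 72 pairings of a straw cow with an AH cow. The fold between means was 2.22, and the log2 difference of -1.15 (-1.63 to -0.67) had an adjusted p of 0.123 by limma and an exact permutation p of 0.000539. The gene was therefore not DE, although the replicate number as a block or DESeq2 brought it past the threshold. Other settings took it further away, with adjusted p-values of 0.531 by limma after TMM scaling, 0.812 by limma without a filter and 0.417 by edgeR. With cow weights in limma its log2 difference was -0.77. In the RefSeq annotation 1 protein-coding gene lies between *S100A8* and *S100A9*. In whole papillae, fewer cells that express a gene and less RNA of it per cell cannot be told apart.

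*PRSS53*, a serine protease known for its expression in the inner root sheath of hair follicles, was the other DE gene. Its level was 4.36 to 32.8 CPM (median 8.55) in AH cows, against 23.8 to 110.4 CPM (median 76.8) in CS cows and 36.7 to 113 CPM (median 53.2) in RS cows. The ranges overlapped through the first and the sixth AH cow, at 32.8 and 24.3 CPM, and the first CS cow, at 23.8 CPM. The means were 14.05 ± 11.7 CPM (SD, n = 6) in AH and 66.3 ± 30.5 CPM (SD, n = 12) in straw, which is a fold of 4.72. The log2 difference of -2.42 (-3.24 to -1.59) reached an adjusted p of 0.0377 by limma, with an exact permutation p of 0.000323, and RS and CS differed by -0.11 (-1.07 to 0.84). This call was the fragile one. It was kept when the first AH, the sixth AH, the first CS, the third CS, the first RS or the fifth RS cow was left out, and it was lost when any of the other 12 cows was left out, the limma adjusted p being 0.00521 to 0.192 over the 18 fits. It was also lost with the replicate number as a block (adjusted p = 0.0531), without the intensity trend (0.0733), without a filter (0.159) and with edgeR (0.205). Without the 3 cows that lay apart the difference was -2.59 with an adjusted p of 0.0137 by limma.

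The genes that share the hair-sheath type of cornification with *PRSS53* were *TGM3*, a transglutaminase that cross-links envelope proteins, and *KRT36*, a hair keratin. *TGM3* ranged over 133 to 834 CPM (median 466) in AH, 247 to 2167 CPM (median 1069) in CS and 597 to 2019 CPM (median 1088) in RS. AH and straw cows overlapped, since the first CS cow, at 247 CPM, was below 4 of the AH cows. Its log2 difference was -1.31 (-2.19 to -0.43) with an exact permutation p of 0.0176, and -1.65 without the 3 cows apart. *KRT36* did not pass (log2 difference -0.43, exact permutation p = 0.702). Its log2 ratio of means, -2.51, moved to -1.25 without the fifth CS cow, which held 83.4 CPM. Of the 3 hair-sheath genes with a symbol, 2 were lower at an unadjusted p under 0.05 and 1 did not pass, and their median log2 difference was -1.31, against 0.03 for all genes. Because the symbols came from genes selected on these cows, this and the following counts by role are not independent evidence of a direction.

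Among antimicrobial genes of the epithelium, *TAP*, the tracheal antimicrobial peptide, a beta-defensin, had the lowest log2 difference of all 12868 genes. It was found at 1.51 to 102 CPM (median 29.7) in AH cows, 95.9 to 770.2 CPM (median 194) in CS cows and 139.8 to 612 CPM (median 329) in RS cows. Only the first AH cow reached into the straw range, above the third and the sixth CS cow. The means, 38.6 ± 39.8 CPM (SD, n = 6) in AH and 329 ± 229 CPM (SD, n = 12) in straw, differed by a fold of 8.52. The log2 difference was -3.82 (-5.25 to -2.40) with a limma adjusted p of 0.0767 and an exact permutation p of 0.000323, so *TAP* missed the threshold. It was called when the first or the third AH cow was left out, when the 12 straw cows were fitted as 1 group, and with DESeq2. Without the fourth AH cow, which held 1.51 CPM, the difference was -3.18 and the adjusted p 0.203 by limma.

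*PI3*, the protease inhibitor elafin, stood at 10.4 to 135 CPM (median 47.8) in AH cows and at 23.4 to 1093 CPM (median 288) and 137 to 866 CPM (median 403) in CS and RS cows. The first CS cow, at 23.4 CPM, lay below 5 of the AH cows, and 10 of the straw cows lay above every AH cow. The log2 difference was -2.66 (-3.999 to -1.33; adjusted p = 0.474 by limma; exact permutation p = 0.00399). Without the 3 cows that lay apart, of which the first CS cow is 1, it was -3.16 with an adjusted p of 0.0219 by limma, past the threshold, as it also was with DESeq2.

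*LAP*, the lingual antimicrobial peptide and a close relative of *TAP*, covered 0.229 to 39.2 CPM (median 20.6) in AH, 9.64 to 145 CPM (median 38.1) in CS and 16.9 to 115 CPM (median 53.8) in RS, with broad overlap (log2 difference -1.99, -3.44 to -0.54, exact permutation p = 0.0219). The lowest level was that of the fourth AH cow, and without it the log2 difference was -1.198. *DUOXA2*, which matures the epithelial oxidase that makes hydrogen peroxide, had a log2 difference of -0.94 (exact permutation p = 0.0566). The peroxidase *LPO*, which uses that hydrogen peroxide, had a difference of -0.66 (exact permutation p = 0.260). Thus 4 of the 5 antimicrobial genes with a symbol were lower in AH at an unadjusted p under 0.05 and 1 did not pass, with a median of -1.99, which is the value of *LAP* with all cows. The summed CPM of the 5 genes was 27.0 to 312 in AH cows, 242 to 1502 in CS cows and 424 to 1578 in RS cows. Reads that fit several places were removed by the authors, so the levels of genes with near-identical copies, here *TAP*, *LAP*, *IGLL1*, *SAA1*, *UGT2B17*, *HSPA1A*, *HLA-DQA1* and *HLA-DQB1*, are uncertain.

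**Figure D2:**
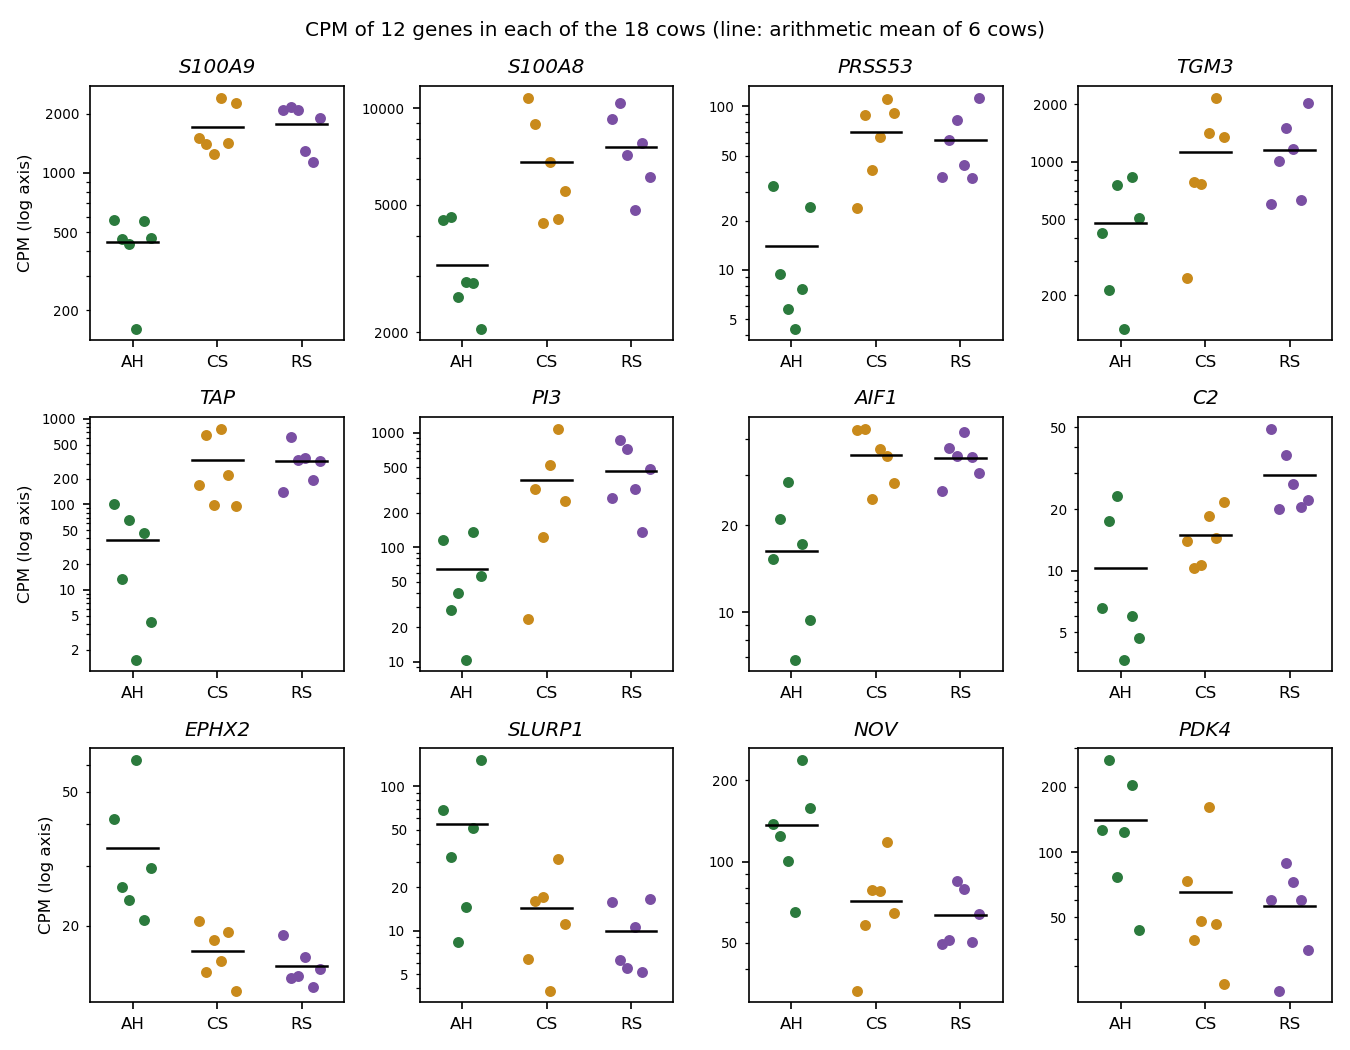
CPM of 12 genes (log axis) in each cow, by diet, with a line at the arithmetic mean of the 6 cows of a diet. AH cows lie apart from all straw cows for *S100A9* (below) and *EPHX2* (above), the other 10 genes overlap, and for *C2* the mean of CS lies between those of AH and RS.

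*AIF1*, a marker of macrophages, was lower in AH with little spread in straw. AH cows held 6.84 to 28.2 CPM (median 16.3), CS cows 24.8 to 43.4 CPM (median 35.8) and RS cows 26.4 to 42.1 CPM (median 34.7). The third AH cow, at 28.2 CPM, was the only 1 that reached the straw range. The log2 difference was -1.18 (-1.66 to -0.70; adjusted p = 0.123 by limma, 0.0337 without the third AH cow and 0.00955 with DESeq2; exact permutation p = 0.000431), and RS minus CS was -0.02 (-0.58 to 0.53). With edgeR the adjusted p of *AIF1* was 0.303, so it did not pass there. Of the 3 macrophage markers with a symbol *AIF1* alone had an unadjusted limma p under 0.05. The others were *CD5L* (-1.39, exact permutation p = 0.225) and *Cd209f* (-0.14, exact permutation p = 0.899). Their summed level was 7.07 to 97.6 CPM in AH, 32.6 to 54.9 CPM in CS and 27.7 to 161 CPM in RS. How far a number of macrophages goes with the S100 and antimicrobial genes was not tested. *IGLL1*, an immunoglobulin light chain gene, had a log2 difference of -1.73 (exact permutation p = 0.0509). It ranged from 3.35 to 246 CPM among AH cows alone, and the log2 ratio of means moved from -0.74 to -1.33 without the third AH cow and to -0.44 without the fourth RS cow. Without the fourth AH cow the log2 difference was -1.07. *CR2*, the other of the 2 B cell markers with a symbol, had -0.36 (exact permutation p = 0.760).

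Of the complement genes, *C2* and *CFB*, the catalytic subunits of the classical and the alternative C3 convertase, were lower in AH at an unadjusted p under 0.05. *C2* was 3.67 to 23.2 CPM (median 6.31) in AH, 10.3 to 21.7 CPM (median 14.2) in CS and 19.9 to 49.4 CPM (median 24.3) in RS. It did not set AH against both straws alike, as all 6 CS cows lay within the AH range and 3 RS cows lay above every AH cow. Its log2 difference from straw was -1.24 (-1.91 to -0.56, exact permutation p = 0.00851), and it was called with cow weights only, while RS exceeded CS by 0.91 (0.13 to 1.69). *CFB*, which lies next to *C2* in the genome with no protein-coding gene between them, had -0.95 (-1.56 to -0.34, exact permutation p = 0.0152) and 0.41 (-0.29 to 1.12) for RS minus CS. The third AH cow held the highest *CFB* level of the AH cows, 187 CPM, and without it the log2 ratio of means went from -0.80 to -1.28. The other 4 complement genes did not pass. *C7*, a part of the membrane attack complex, had a log2 difference of -0.46 but a log2 ratio of means of 0.58, with 458 CPM in the third AH cow. The median over the 6 genes was -0.56 on the log2 difference and 0.14 on the ratio of means, so the list had no single direction.

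On the higher side, *EPHX2*, the soluble epoxide hydrolase that breaks down epoxy fatty acids, separated the diets. It measured 20.8 to 62.2 CPM (median 27.9) in AH cows, 12.8 to 20.6 CPM (median 16.9) in CS cows and 13.2 to 18.8 CPM (median 14.6) in RS cows. The lowest AH cow, at 20.8 CPM, was just above the highest straw cow, at 20.6 CPM, and the fourth AH cow stood highest. The mean was 34.0 ± 15.5 CPM (SD, n = 6) in AH and 16.05 ± 2.56 CPM (SD, n = 12) in straw, or 2.12 fold. The log2 difference of 0.97 (0.56 to 1.38) had a limma adjusted p of 0.123 and the smallest possible exact permutation p, 0.00011. It passed at an adjusted p of 0.00548 with DESeq2 and of 0.0106 with cow weights in limma. CS and RS cows differed by -0.14 (-0.61 to 0.34). The separation was narrow. After TMM scaling 2 genes showed no overlap, *S100A9* and an identifier without a symbol, and *EPHX2* was not among them.

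*ENPEP*, a membrane aminopeptidase that cleaves angiotensin, was also higher, at 3.38 to 13.7 CPM (median 7.05) in AH, 1.37 to 5.73 CPM (median 4.21) in CS and 0.157 to 4.95 CPM (median 2.35) in RS (log2 difference 1.31, 0.50 to 2.12, exact permutation p = 0.00409). *ENPEP* was not DE. The order AH, CS, RS held for its means, but the interval of RS minus CS, -1.87 to 0.01, took in 0. Of the 4 genes with a symbol in the list named detoxification, *EPHX2* and *ENPEP* were higher at an unadjusted p under 0.05. The list is a loose one, since *ENPEP* is a peptidase. *VNN2*, a pantetheinase, had 1.08 (exact permutation p = 0.116) and *UGT2B17*, a glucuronosyltransferase, 0.15 (exact permutation p = 0.767). The median of the list was 1.03, which is not a result for detoxification enzymes alone.

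*SLURP1*, a secreted protein of differentiating keratinocytes, had the highest log2 difference of all 12868 genes. It measured 8.35 to 153 CPM (median 41.6) in AH cows, 3.84 to 31.6 CPM (median 13.7) in CS cows and 5.19 to 16.5 CPM (median 8.47) in RS cows. Of the AH cows 4 lay above every straw cow, and the other two lay within the straw range. The log2 difference was 1.77 (0.72 to 2.82; exact permutation p = 0.00862). With DESeq2 its adjusted p was 0.00207, but it did not pass with edgeR (adjusted p = 0.213). In limma it passed neither with all cows nor when any 1 cow was left out, the lowest adjusted p of those fits being 0.211. The fold between means of 4.48 leaned on the sixth AH cow, since the log2 ratio of 2.16 was 1.52 without it. *PADI1*, an enzyme that converts arginine to citrulline in keratins, stood at 2.09 to 53.9 CPM (median 14.4) in AH, 3.04 to 10.1 CPM (median 8.18) in CS and 0.403 to 12.9 CPM (median 1.30) in RS (log2 difference 1.72, 0.44 to 3.00, exact permutation p = 0.0295). Of the 4 squamous differentiation genes with a symbol 2 were higher at an unadjusted p under 0.05. *DSG1*, a desmosomal cadherin, had 0.89 (exact permutation p = 0.170), with medians of 11.6 CPM in AH and 11.3 CPM in CS. *CRISP3*, a secreted protein, had 1.204 (exact permutation p = 0.281). The median of the 4 genes was 1.46. *TGM3*, which cross-links envelope proteins, was counted with the hair-sheath genes and not here, and it was lower in AH (log2 difference -1.31). The contrast between the 2 lists therefore depends on where that gene is placed.

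Among growth signals 4 of 5 genes were higher in AH at an unadjusted p under 0.05, with a median of 0.86. *NOV*, a matricellular protein of the CCN family, was 64.8 to 238 CPM (median 131) in AH, 33.2 to 118 CPM (median 71.0) in CS and 49.7 to 85.0 CPM (median 57.4) in RS. Of the 6 AH cows 4 were above every straw cow (log2 difference 0.97, 0.46 to 1.49; adjusted p = 0.753 by limma; exact permutation p = 0.00269). With DESeq2 its adjusted p was 0.0215. Its relative *CYR61*, an immediate early gene, had 1.25 (exact permutation p = 0.0280), and the log2 ratio of means went from 1.35 to 0.86 without the fifth AH cow. *IGFBP3*, which binds insulin-like growth factors, had 0.76 (exact permutation p = 0.0339) and lost its unadjusted limma p under 0.05 without the 3 cows that lay apart. *APOLD1*, an early response gene of endothelium, had 0.86 (exact permutation p = 0.0505). *ID1*, an inhibitor of differentiation, had 0.67 (exact permutation p = 0.0956) and did not pass.

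Genes of metabolism and transport were few. *PDK4*, the kinase that holds back pyruvate oxidation, ranged over 43.6 to 266 CPM (median 125.03) in AH, 24.6 to 161 CPM (median 47.6) in CS and 22.98 to 88.8 CPM (median 60.1) in RS. The fourth CS cow lay above 4 of the AH cows, and 2 AH cows lay above every straw cow (log2 difference 1.16, 0.36 to 1.96, exact permutation p = 0.0169). *PDK4* was the only 1 of 22 genes listed for fatty acid transport and ketogenesis that had a symbol. As a kinase it is neither a transporter nor a ketogenic enzyme, so those 2 processes could not be read. *SLC14A1*, the urea transporter UT-B, was 338 to 1287 CPM (median 783) in AH, 365 to 749 CPM (median 561) in CS and 177 to 517 CPM (median 389.9) in RS. Its log2 difference was 0.67 (exact permutation p = 0.0284), but the straw diets differed as well, RS being lower than CS by 0.60 (-1.19 to -0.02 for RS minus CS). *ARG1*, the arginase that releases urea, had 1.01 (exact permutation p = 0.0985). The plasma protein *AHSG* was higher at 0.92 (exact permutation p = 0.0737) under an unadjusted limma p of 0.05, but not without the 3 cows apart. *TTR*, a carrier of thyroid hormone, had 0.85 (exact permutation p = 0.186), with 49.0 CPM in 1 AH cow, and *SAA1*, an acute-phase protein, had -1.03 (exact permutation p = 0.198).

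None of the 6 heat shock genes with a symbol passed, and their median log2 difference was -0.12. Without the 3 cows that lay apart the median was 0.65, and 1 gene, the co-chaperone *DNAJA1*, named here after its values were seen, was higher in AH at an unadjusted p under 0.05, with a log2 difference of 1.45 in place of 0.99. Their summed level was 567 to 2677 CPM in AH, 485 to 10319 CPM in CS and 434 to 13153 CPM in RS, so the widest levels were those of single straw cows. For *ZFAND2A*, a stress-induced zinc finger gene, the second CS cow stood at 128 CPM and the fifth RS cow at 77.5 CPM, both among the 3 cows that lay apart. The log2 difference was -0.14 with all cows and 0.72 without those 3. None of the 3 MHC class II and interferon-induced genes passed either (*IFI47*, an interferon-induced GTPase, 1.17, exact permutation p = 0.151), and their median was 0.05 on the log2 difference, -0.56 on the ratio of means and -0.44 on the log2 difference without the 3 cows apart. Nor did any of the 13 fibroblast and matrix markers, whose median was -0.16 on the log2 difference and 0.15 on the ratio of means. The endothelial marker *LYVE1* (0.15, exact permutation p = 0.810) and the adipocyte marker *FABP4* (0.51, exact permutation p = 0.334) did not pass.

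**Figure D3:**
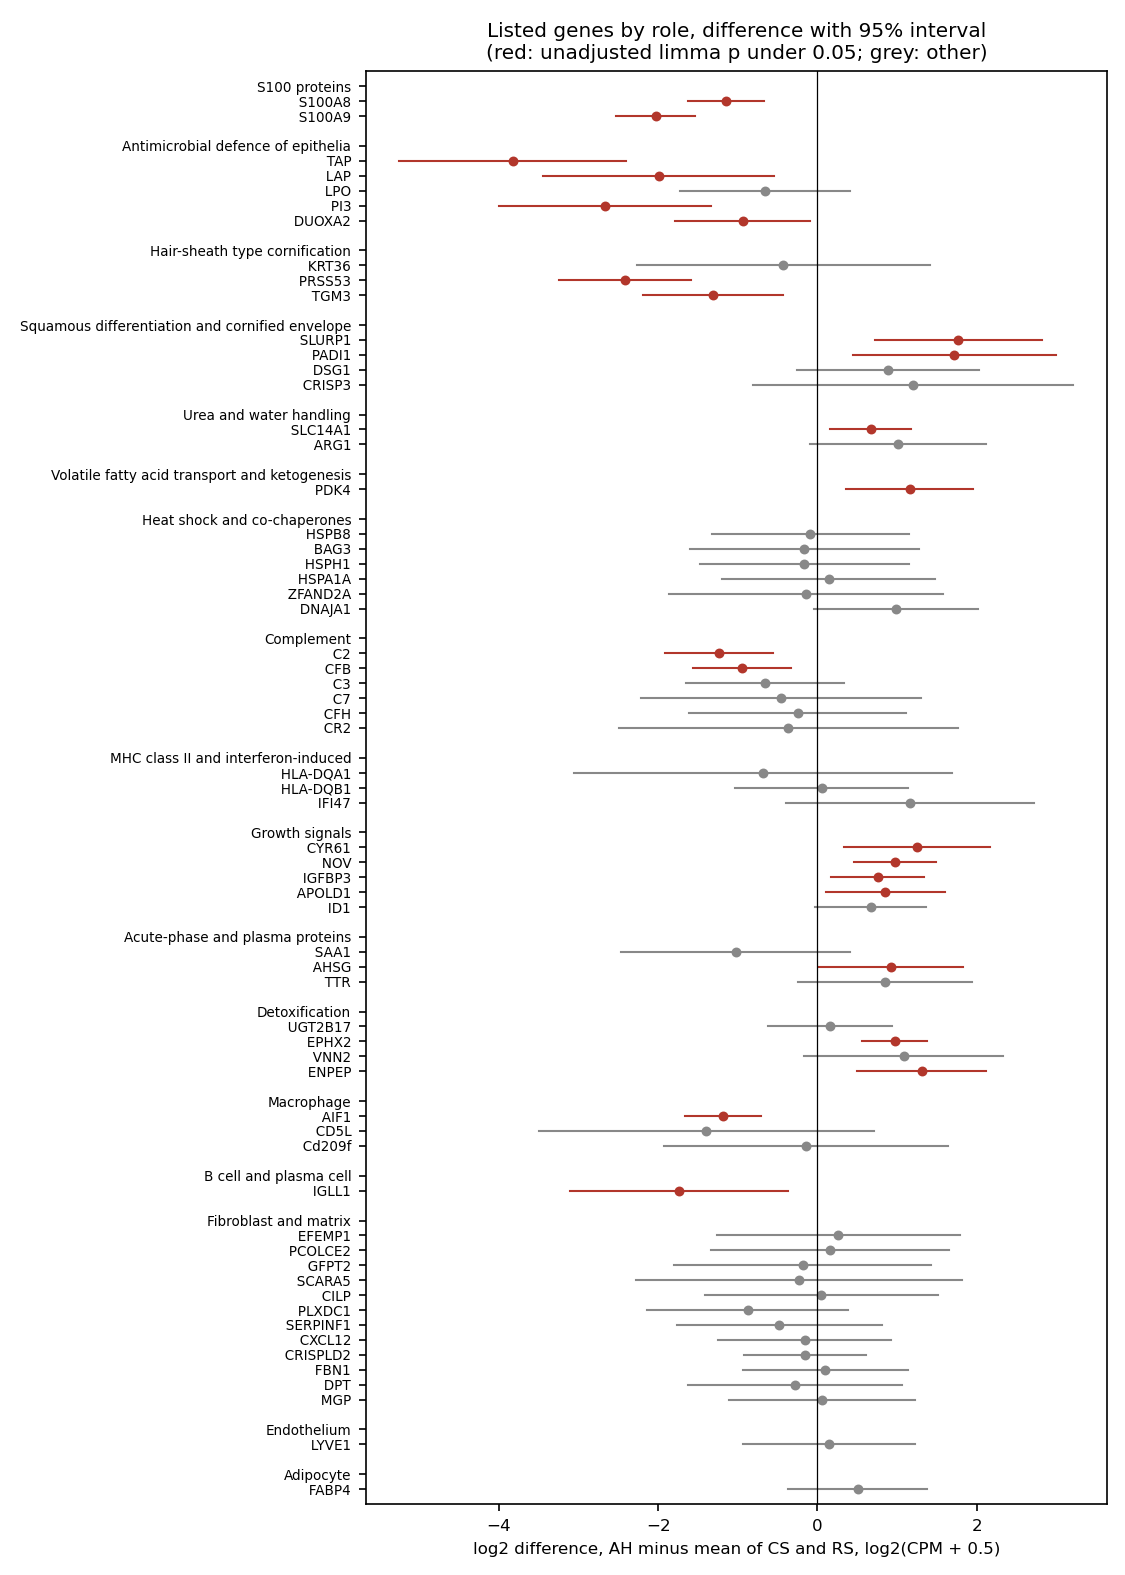
Log2 difference (AH minus the mean of CS and RS, x axis) with its 95% limma interval for the listed genes that have a symbol, grouped by role (y axis), each gene drawn once and red where its unadjusted limma p was under 0.05. S100, antimicrobial and hair-sheath genes lie to the left of 0 with medians of -1.59, -1.99 and -1.31, and squamous and growth signal genes to the right with 1.46 and 0.86. *TGM3*, which cross-links envelope proteins, is drawn with the hair-sheath genes and not with the squamous ones.

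Of the 73 genes with a symbol, 27 were under an unadjusted p of 0.05, 13 of them higher and 14 lower in AH, and 21 of the 27 were also under 0.05 in the exact permutation test, the exceptions being *IGLL1*, *APOLD1*, *DUOXA2*, *Gm8618*, *AHSG* and *TPRG1*. Of the 27 only *S100A9* and *PRSS53* were DE by limma with all cows. All 73 had been selected on these cows, so the share cannot be read against the 2.08% of all genes. Those not yet named were *SLC6A14*, an amino acid transporter (-1.10, exact permutation p = 0.0260), *Gm8618* (-1.15, exact permutation p = 0.0523), *ANKRD24* (1.14, exact permutation p = 0.02004) and *TPRG1* (1.30, exact permutation p = 0.0658). The fifth AH cow held 198 CPM of *Gm8618*, and without it the log2 ratio of means went from -1.15 to -1.96. The 46 genes that did not pass had log2 differences of -1.39 to 1.29.

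Most genes tested had no symbol. ENSBTAG00000016061 was the third gene without overlap and was higher in AH, at 10.8 to 19.5 CPM (median 14.2) in AH cows against 5.47 to 8.57 CPM (median 6.54) in CS and 5.05 to 9.50 CPM (median 8.86) in RS cows (log2 difference 0.92; adjusted p = 0.123 by limma; exact permutation p = 0.00011). ENSBTAG00000013982 was higher at 198 to 407 CPM (median 279) in AH, 116 to 260.2 CPM (median 186) in CS and 118 to 195 CPM (median 163) in RS (log2 difference 0.72; adjusted p = 0.474 by limma). ENSBTAG00000013578 was lower, at 0 to 1.13 CPM (median 0.256) in AH, near the value of 3 reads, against 1.40 to 26.8 CPM (median 4.33) in CS and 0.787 to 17.6 CPM (median 8.29) in RS. Only 1 AH cow reached the straw range (log2 difference -2.90; adjusted p = 0.109 by limma). ENSBTAG00000030624 had -1.54 (adjusted p = 0.415 by limma) at 0.0918 to 1.22 CPM (median 0.485) in AH cows. With DESeq2 the adjusted p of these 4 identifiers was 1.33e-05 to 0.00955, and without the 3 cows that lay apart ENSBTAG00000013578 and ENSBTAG00000030624 passed at 0.0137 and 0.0111 by limma. Among all genes 15 (0.117%) had at least 68 of the 72 pairings of an AH with a straw cow in 1 direction, 8 of them (0.0622%) lower and 7 (0.0544%) higher in AH.

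Whether pooling the straw diets brought out genes beyond the pairwise comparisons was asked in the same fit. In AH vs. CS 1 gene was DE (0.00777%), and in AH vs. RS 1 gene (0.00777%), *S100A9* in each. An unadjusted limma p under 0.05 was found for 234 genes (1.82%) and 203 genes (1.58%). The study, by its own pairwise tests, lists 13 genes as higher and 18 as lower in AH than in CS. Against RS it lists 22 as higher and 18 as lower. Most of its calls were thus not reached in this fit, and the reason was not tested. AH vs. CS and AH vs. RS share the AH cows and are set side by side only. For *S100A9* the log2 difference was -2.002 from CS (adjusted p = 0.00617 by limma) and -2.06 from RS (adjusted p = 0.00394 by limma), against 0.000539 when pooled. For *PRSS53* it was -2.47 and -2.36, with limma adjusted p-values of 0.176 and 0.268. In this fit the gene passed only in the pooled contrast. Pooling did not bring it out anew, since the study lists it as lower in AH than in CS and in RS. The study's qPCR gave the same direction for both comparisons. *TAP* had -3.67 and -3.98 (adjusted p = 0.501 and 0.268 by limma, 0.0767 pooled). *EPHX2* had 0.90 and 1.04 (adjusted p = 1 and 0.379 by limma, 0.123 pooled).

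RS and CS themselves gave 0 genes at an adjusted p under 0.05 with limma, DESeq2 or edgeR. At an unadjusted p under 0.05 there were 136 genes (1.06%) with limma, 256 with DESeq2 and 211 with edgeR. The study does list DE genes between RS and CS, 17 of them in that comparison only. The reason for this difference was not tested. Of the 27 genes under 0.05 in AH against straw, 25 were not under 0.05 in RS vs. CS, the exceptions being *C2* and *SLC14A1*. The intervals of RS minus CS were wide for several of the 25, for example -2.79 to 0.15 for *PADI1* and -0.76 to 2.32 for *PI3*, so that equal levels in the straw diets were not shown. They were narrowest for *EPHX2*, *AIF1*, *S100A8* and *S100A9*. The sum of squares between the 3 diets divides into AH against straw and RS against CS. AH against straw took a median of 56.0% of it over all genes and of 96.9% over the 27 genes, a share that follows in part from choosing them on the first contrast. For *S100A9*, *PRSS53* and *EPHX2* it was 99.9%, 99.8% and 98.6%, and for *C2* and *SLC14A1* 71.1% and 62.2%.

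**Figure D4:**
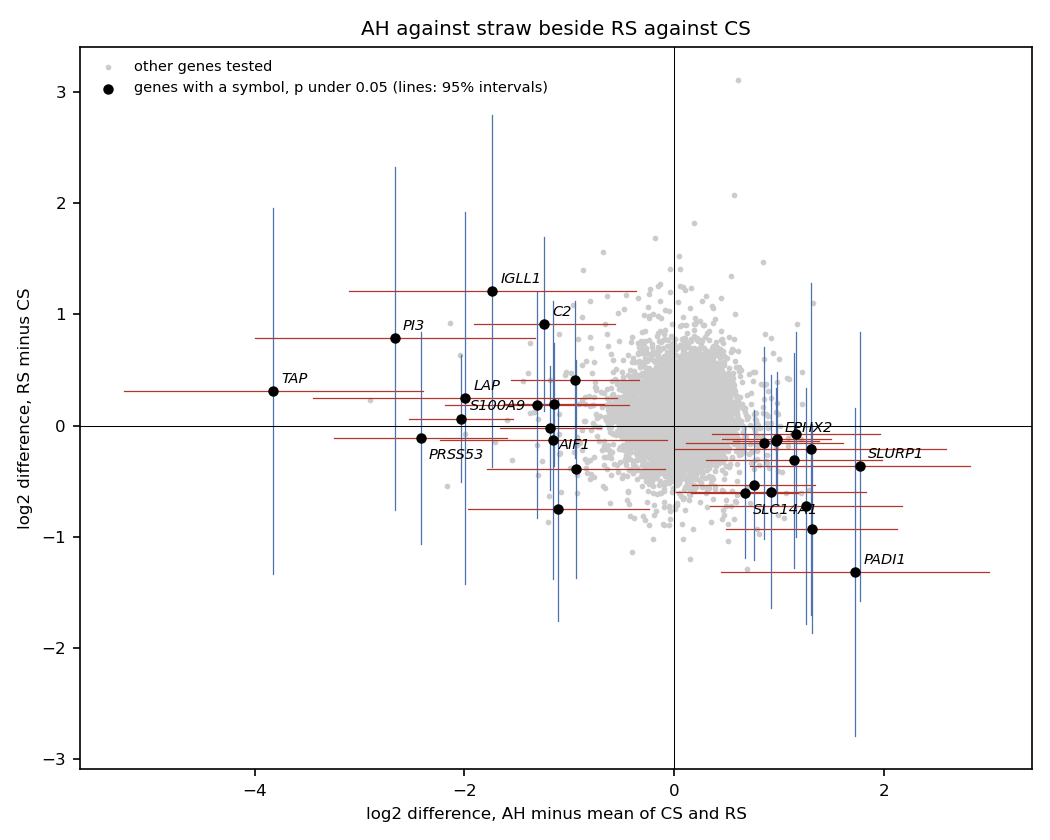
Log2 difference of AH from the mean of CS and RS (x axis) against that of RS from CS (y axis) for all 12868 genes in grey and for the 27 genes under 0.05 in black, with 95% limma intervals of each contrast as lines. *TAP*, *PRSS53* and *S100A9* lie far to the left and near 0 on the y axis, while *C2* (0.91) and *SLC14A1* (-0.60) have y intervals that leave out 0.

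The AH cows did not carry these differences evenly. The fourth AH cow was below all 12 straw cows in 13 of the 14 lower genes, and the first AH cow in 3 of 14. The second, the third and the fifth AH cow were each below all straw cows in 6 genes, and the sixth in 9. In the 13 higher genes, the fifth AH cow was above all straw cows in 11, the sixth in 9 and the first in 8. The second was above all of them in 6, the fourth in 4 and the third in 2. These genes were chosen on the same contrast. How often each AH cow lay outside the straw range over all genes tested was not counted. The counts therefore cannot tell a trait of these genes from a cow that is extreme in general. Leaving out the 3 straw cows that lay apart gave 9 DE genes (0.0699%) in place of 2, all lower in AH, with *PI3* joining *S100A9* and *PRSS53* among the genes with a symbol. The number of genes at an unadjusted p under 0.05 went from 268 to 873 (6.78%), of which 724 were lower in AH, while the median log2 difference of all genes moved from 0.03 to -0.07. Of the 27 genes, 24 remained under 0.05, 10 higher and 14 lower, and the others were *IGFBP3*, *AHSG* and *TPRG1*.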

How the data were processed

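Rumen papillae RNA of 18 cows was read in pairs of 100 bp. The authors used TopHat2 and UMD3.1 for alignment, dropped reads with over 2 mismatches or several hits, counted Ensembl genes with HTSeq and deposited CPM. At a tolerance of 0.02, 100% of the CPM came out as whole reads, which served DESeq2 1.42.0 and edgeR 4.0.16 only as alternatives. The extraction text of the labels speaks of rectal tissue and the paper of rumen papillae, and which holds was not tested. No batch is named.

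Limma 3.58.1 (R 4.3.3, intensity trend, a term per diet) was fitted to log2(CPM + 0.5) of the genes whose CPM exceeded 1 in 9 or more of the 18 cows, as AH minus the mean of CS and RS, which is orthogonal to RS minus CS. Fold changes on this scale understate those of genes with few reads. Adjustment of p followed Benjamini and Hochberg over 12868 genes. Single genes were tested by two-sided exact permutation. Scripts were tested on simulated data. The genes and lists were chosen with earlier results of these data known. Symbols came from the study's list of DE genes, which paired 62 of 254 listed symbols (24.4%). All lists of the cytokine response, cholesterol synthesis, proliferation, neutrophils, T cells, smooth muscle, basal keratinocytes and blood had 0 paired genes. RefSeq matched 62 of the 73 symbols for gene order. The named genes with values were DE genes, genes without overlap and symbols at an unadjusted p under 0.05, with 1 example per list that did not pass and 4 identifiers, 41 genes in all. *CD5L*, *Cd209f*, *CR2*, *CRISP3*, *UGT2B17*, *SAA1*, *LYVE1* and *FABP4* were added to complete their lists, and *DNAJA1* after its values were seen. The authors' own fold changes and p-values were not used.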

Additional observations from a re-analysis of the deposited data

Results flagged for a closer look

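Among the genes named, 123 groups of 6 cows were examined for a single cow far from the other 5 of its diet, on the log2 scale by Dixon's criterion, and 9 were found. Chance alone would mark about 1 in 20 groups. The fourth AH cow held 160.8 CPM of *S100A9*, against 436.2 to 575.1 CPM in the other AH cows, so that it lay on the far side from the straw cows. The fifth AH cow held 198.5 CPM of *Gm8618*, against 27.78 to 41.62 CPM. In RS cows, *CYR61* stood at 8.383 CPM in the second cow (21.05 to 35.07 CPM in the others), *IGLL1* at 471.7 CPM in the fourth (143.4 to 185 CPM) and *SLC14A1* at 176.5 CPM in the fifth (352.3 to 516.8 CPM). *ZFAND2A* reached 128.1 CPM in the second CS cow (2.11 to 4.851 CPM) and 77.49 CPM in the fifth RS cow (1.573 to 5.681 CPM), which are both among the 3 cows apart on the first principal component. *IFI47* was at 0.05513 CPM in the first CS cow (11.48 to 21.43 CPM) and at 0.8061 CPM in the third RS cow (15.55 to 54.46 CPM).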

How the results depend on the processing

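The 2 DE genes became 14 with DESeq2, 11 with cow weights and 9 without the first 2 CS cows and the fifth RS cow, a choice made after the data had been seen, and 1 with edgeR, with no filter or with no intensity trend. At an adjusted p alone the 2 genes became 17, 13, 10, 1, 1 and 1. Leaving out each cow gave 1 to 3 genes by either count. The 3 genes without overlap became 11 without those 3 cows and 3 to 7 without single cows. With fewer cows a complete separation is likelier even where the diets do not differ, so these counts cannot be compared directly. RS vs. CS gave 0 in every setting run, 0 to 0 without single cows. *S100A9* passed in every setting, with adjusted p-values of 5.59e-13 to 0.00503, and *PRSS53* lost its call with edgeR, no filter, no intensity trend and the block. The same replicate number is not stated to pair cows. Of 18 same-numbered pairs, 12 had a correlation of deviations over 0.1 (-0.499 to 0.719) and 5 of 18 cows correlated best with their own number. With the replicate number as a block 2 genes were DE, *S100A9* and *S100A8*, and no gene of RS vs. CS.

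Over the 41 named genes, 1289 of 1343 values kept direction and side of the threshold, 16 lost and 27 gained a call, and 11 changed sign. Without single cows *KRT36* ranged from -0.646 to 0.0125 (0.0125 without the fifth CS cow), *ZFAND2A* from -0.602 to 0.277 and *C7* from -1.22 to 0.0810. *ZFAND2A* was 1.30 with cow weights, 0.72 without the 3 cows and above 0 without the third AH, the sixth AH, the second CS or the fifth RS cow. *C7* was 0.68 with DESeq2 and with edgeR, and above 0 without the fourth or the sixth AH cow. Cow weights moved the median of all genes to -0.13. The cause of these changes was not tested. No exact p passed the adjustment over all genes, the lowest adjusted value being 0.462.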
